A study of Mus musculus with 4 samples.

Results

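Collagens are the extracellular matrix proteins built from 3 chains that wind into a triple helix, and this account follows the mouse genes that encode those chains. The members were the array's non-control probes whose gene name has the form of a collagen chain symbol, Col followed by a type number, the letter a and a chain number. The array held 59 such probes for 40 genes of 26 collagen types on 14 chromosomes, among 39429 non-control probes in all. The genes were divided into 11 fibrillar collagens, 8 basement membrane collagens and 21 other collagens.

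A helix forms only where glycine recurs with a spacing of 3 residues along each chain, and procollagen chains are hydroxylated, glycosylated and folded in the endoplasmic reticulum before export. Fibrillar collagens lose their propeptides outside the cell and assemble into the crosslinked fibrils of connective tissue, whereas type IV chains join into the sheet-like network under epithelia and around vessels. In the developing kidney, interstitial stroma is known as a source of fibrillar collagen, and type IV collagen lies beneath the ureteric bud, the forming nephrons and the glomerular capillaries.

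The study sorted cells of mouse kidneys at E15.5 (E for embryonic day) by green fluorescence into a Six2GFP-positive and a Six2GFP-negative population and measured total RNA of each on one-colour arrays, 2 arrays per population. Six2 encodes a transcription factor of the cap mesenchyme, the nephron progenitors that surround the ureteric bud tips, and the comparison asks which genes mark those progenitors. All samples came from mice on a mixed 129 and C57BL/6 background. One label field of every sample speaks of tamoxifen, while the treatment protocol describes dissection, washing and sorting alone. The construct behind Six2GFP and the number of embryos are not given in the sources used here, and nothing says that the 2 samples of a group came from separate animals. The p-values therefore measure the spread between these samples, which may be technical. A single cell type label, nephron progenitor, was given to both populations, although Six2 itself was at 5.58 and 5.74 in Six2GFP-positive against −0.17 and −0.15 in Six2GFP-negative samples. Those values, like all levels here, are log2 signals relative to the 75th percentile of the same array. Six2 was thus 56.5-fold higher in the Six2GFP-positive samples (log2 difference 5.82 ± 0.10 SE, limma adjusted p = 5.0e-04). Of the 8 cap mesenchyme markers, 7 were higher, against 20.7% of all genes tested. The negative samples are the cells sorted as Six2GFP-negative. They had higher levels of 9 of 10 stromal, 7 of 8 endothelial, 9 of 9 ureteric bud and 10 of 10 early nephron markers. The share of all genes tested that were lower in the positive samples was 18.3%. Among 7 macrophage markers, 1 was lower in the positive samples and 6 did not pass the threshold set out below. That is near the share of all genes and is not a result about macrophages. The cap marker that was not higher, Eya1, was at 4.57 and 4.53 in positive against 4.47 and 4.55 in negative samples. Gdnf, another cap marker, was at 3.35 and 3.61 in positive against 2.45 and 2.29 in negative samples. In these bulk samples, fewer cells of a type and less RNA per cell cannot be told apart.

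Collagen expression was mostly lower in the Six2GFP-positive cells. A gene was tested when a probe was well above background, by the scanner software's own flag, on both arrays of at least 1 population, and 37 of the 40 collagen genes were. Col10a1, Col19a1 and Col28a1 had no probe well above background on any array. Of the 37 genes tested, 29 were lower, 6 were higher and 2 did not pass the threshold of an adjusted p of 0.05 in limma with Benjamini-Hochberg adjustment over 24150 genes. Among all genes tested, 18.3% were lower and 20.7% were higher, 38.9% in all. The median difference, positive minus negative, was −2.57 on the log2 scale over the collagens and 0.15 over all genes. The 2 positive and the 2 negative values did not overlap for any of the 37 genes, which was also so for 74.9% of all genes.

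Passing the filter through the negative arrays alone obliges a gene to come out lower, and 5 collagens did so. Their positive values were not well above background, so only a bound can be given, set against the lowest signal that was well above background on each positive array. Col4a3 was at least 2.17-fold lower, Col6a6 at least 1.42-fold, Col8a1 at least 3.35-fold, Col9a3 at least 4.17-fold and Col17a1 at least 2.93-fold. The 32 genes well above background on all 4 arrays divided into 24 lower, 6 higher and the same 2 below the threshold, Col4a5 and Col4a6. The difference was at least 2-fold for 23 of these lower collagens and 4 of the higher ones, against 10.0% and 3.45% of the 22281 genes measured in that way. It reached 16-fold for 7 lower collagens, against 1.12% of those genes. The median over the 32 was −2.08. Under an alternative background model (normexp with an offset of 50), which draws dim signals together, the collagen median was −1.16 with 27 lower and 6 higher. That model moved 12 collagens by over 1.5 times, all toward 0: the 5 genes with bounds, to between −0.65 and −0.08, and Col5a3 (−2.09), Col25a1 (−1.69), Col24a1 (−1.46), Col22a1 (−0.82), Col15a1 (−0.67), Col20a1 (0.83) and Col13a1 (1.05). Scaling each array to its median raised every difference by 0.25, so that the median of all genes stood at 0.41, and gave 28 lower and 7 higher collagens while the calls over all genes went from 4413 lower and 4989 higher to 3767 lower and 10810 higher.

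**Figure D1:**
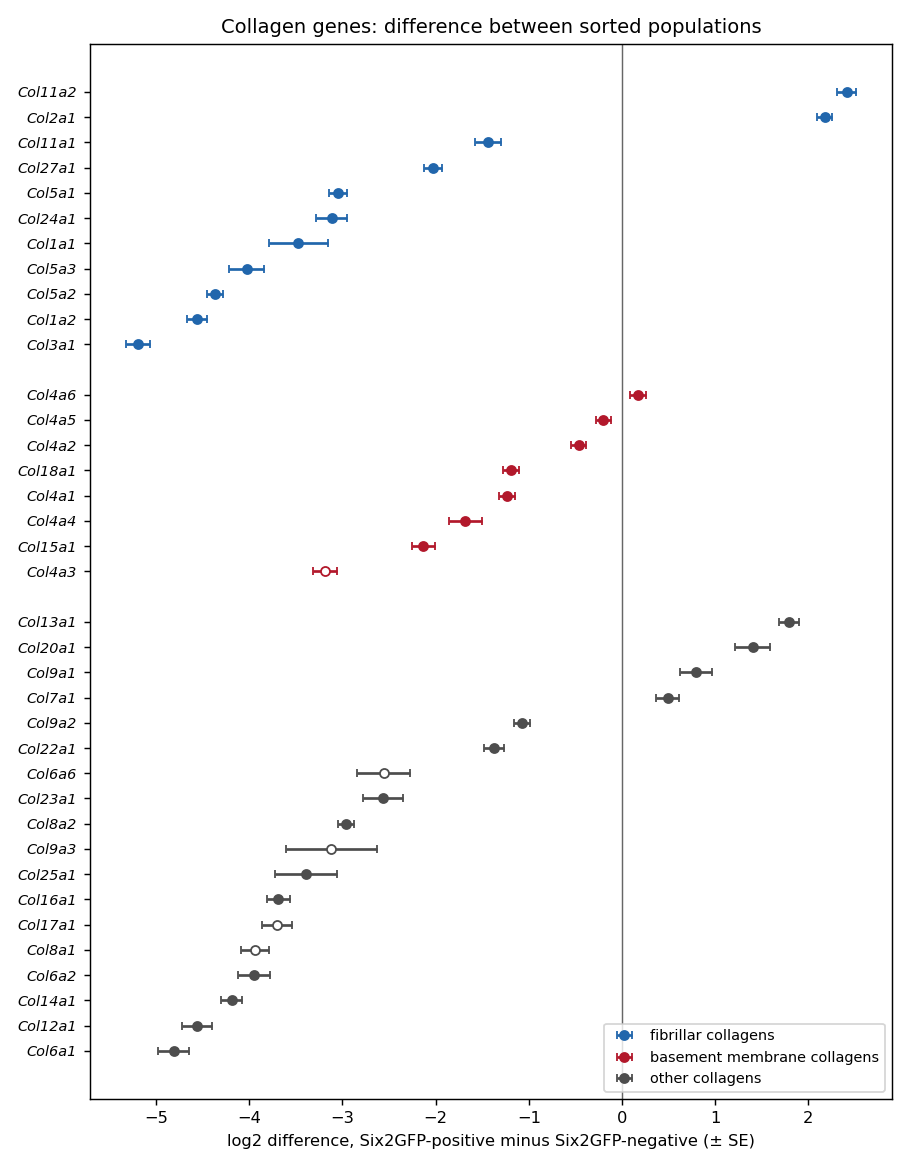
Log2 difference between Six2GFP-positive and Six2GFP-negative samples for the 37 collagen genes tested (x axis, with SE from limma, n = 2 arrays per population), ordered within fibrillar, basement membrane and other collagens. Open symbols are the 5 genes not well above background on either positive array. Most genes lie left of 0, the 2 fibrillar exceptions are Col2a1 and Col11a2, and the type IV chains Col4a2, Col4a5 and Col4a6 lie within 0.5 of 0.

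The differences of the fibrillar collagens ran from −5.19 to 2.41. All 11 were measured well above background on all 4 arrays, 9 were lower, 2 were higher, and their median difference was −3.12. Col3a1, the chain of type III fibrils of soft connective tissue, had positive values of −0.42 and −0.70 against negative values of 4.62 and 4.64. That is a 36.5-fold lower signal in Six2GFP-positive cells (log2 difference −5.19 ± 0.13 SE, adjusted p = 5.0e-04), and no other of the 37 tested collagen genes differed by as much in the fit reported here. Its probe lies at chr1:45405589-45405648 in mm9, the build of the array files. Col1a2, one of the chains of type I collagen, was at 1.48 and 1.33 against 6.02 and 5.91, or 23.6-fold lower (−4.56 ± 0.11). Its partner Col1a1 was at 2.16 and 1.34 against 5.36 and 5.09. The positive arrays differed from each other by 0.81 for Col1a1, more than for any other fibrillar chain, and the gene was still 11.1-fold lower (−3.47 ± 0.32, adjusted p = 0.0039). Both type I chains remained above the array's 75th percentile in the positive cells.

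Col3a1 and Col1a2, the fibrillar genes with the largest falls, are shown by the 250 bases before their annotated starts because they moved together and RefSeq (GRCm38.p6) gives no other gene there. The first lies at chr1:45311288-45311537 on the plus strand and the second at chr6:4505368-4505617 on the plus strand, each printed 5′ to 3′ with matches to the motif CCAAT, the motif GGGCGG or the motif TATAAA on either strand in capitals.
Col3a1: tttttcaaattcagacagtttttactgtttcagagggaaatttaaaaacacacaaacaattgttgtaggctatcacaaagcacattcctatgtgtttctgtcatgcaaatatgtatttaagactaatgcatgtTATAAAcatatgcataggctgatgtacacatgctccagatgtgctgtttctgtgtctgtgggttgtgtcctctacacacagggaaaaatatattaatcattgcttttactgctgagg
Col1a2: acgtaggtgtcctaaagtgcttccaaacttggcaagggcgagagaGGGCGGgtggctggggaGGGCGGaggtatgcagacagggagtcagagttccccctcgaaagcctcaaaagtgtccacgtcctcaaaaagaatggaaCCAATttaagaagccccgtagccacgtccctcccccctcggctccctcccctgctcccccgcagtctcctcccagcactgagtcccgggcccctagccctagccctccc
The Col3a1 stretch held 1 match to TATAAA and was 35.2% G or C. The Col1a2 stretch held 2 matches to GGGCGG and 1 to CCAAT and was 62% G or C. The 2 stretches had none of the 3 motifs in common, and a match is a description of letters only. TATAAA occurred before 12.4% of 32851 RefSeq starts and in 5 of the 32 collagen genes with an entry, CCAAT before 33.8% and in 12 of 32, and GGGCGG before 32.7% and in 19 of 32.

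The type V chains, which join type I fibrils and set their diameter, were lower as well. Col5a1 was at −1.17 and −1.04 against 2.00 and 1.89, 8.26-fold lower (−3.05 ± 0.10). Col5a2 was at −4.13 and −4.08 against 0.28 and 0.25, 20.6-fold lower (−4.37 ± 0.08). Col5a3 was at −6.29 and −6.34 against −2.06 and −2.53, 16.3-fold lower (−4.03 ± 0.19). Hence all 3 chains fell, with no overlap between populations. The minor fibrillar collagens Col24a1 (−3.12 ± 0.17) and Col27a1 (−2.03 ± 0.10) were also lower.

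The remaining fibrillar genes encode the cartilage-type fibril, and they moved in opposite directions. Col2a1, the type II chain best known from cartilage, had positive values of 2.66 and 2.64 against negative values of 0.45 and 0.50. It was therefore 4.51-fold higher in Six2GFP-positive cells (2.17 ± 0.08, adjusted p = 6.3e-04) at a probe at chr15:97806071-97806130, and its arrays agreed to within 0.05 in each population. Col11a2, a type XI chain, was at −2.21 and −2.06 against −4.51 and −4.58, 5.31-fold higher (2.41 ± 0.10, adjusted p = 7.2e-04) at chr17:34203113-34203172. Its partner chain Col11a1 went the other way, at −3.14 and −2.82 against −1.55 and −1.54, and was 2.70-fold lower (−1.44 ± 0.14, adjusted p = 0.0049). The log2 signal of Col11a2 minus that of Col11a1 was 0.94 and 0.76 in the positive against −2.95 and −3.04 in the negative samples, a shift of 3.85 between the populations. An exact two-sided permutation test of that shift gave p = 0.333, the smallest value that 2 against 2 arrays allow.

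Other cartilage genes were read beside these values. Of 7 cartilage markers, 6 were tested. Matn1 was at −3.93 and −3.72 on the positive arrays and was not well above background on the negative ones. It passed the filter through the positive arrays alone, so it had to come out higher, by at least 11.1-fold. Sox9 (−2.99 ± 0.15) and Hapln1 (−4.85 ± 0.40, well above background on 1 of the 2 positive arrays) were lower, Acan differed by 0.13 (adjusted p = 0.31), Cnmd by −0.37 and Comp by −0.39, neither past the threshold, and Matn3 was not well above background on any array. The summed linear level of the tested cartilage markers was 0.25 and 0.27 in the positive against 1.25 and 1.497 in the negative samples, in multiples of each array's 75th percentile. That sum adds probes not comparable in level. On the negative arrays Sox9, at −0.18 and 0.18, supplied most of the sum, so it is not a measure of cartilage. Their part in the Col2a1 and Col11a2 results was not tested.

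**Figure D2:**
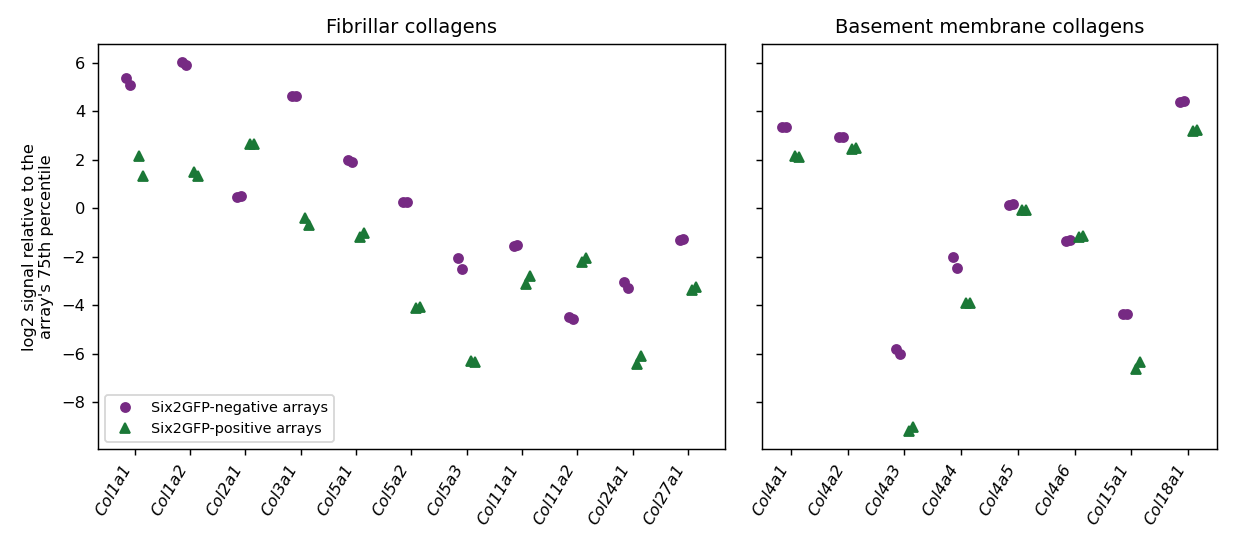
Log2 signal of each array relative to its 75th percentile (y axis) for the 11 fibrillar and 8 basement membrane collagens (x axis), with circles for the 2 Six2GFP-negative arrays and triangles for the 2 Six2GFP-positive arrays. Replicates lie close together, Col2a1 and Col11a2 are the fibrillar genes with triangles above circles, and the symbols of Col4a5 and Col4a6 nearly meet. Signals of different genes come from different probes and are not comparable in level.

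Of the 8 basement membrane collagens tested, 6 were lower, none was higher, 2 did not pass the threshold, and the median difference was −1.21. Without Col4a3, which has only a bound, 5 of 7 were lower with a median of −1.19. No gene was higher in limma at an unadjusted p of 0.05 either (0 of 8), and no other tool was run. Col4a1 and Col4a2 encode the chains of the widespread type IV network. Col4a1 had positive values of 2.15 and 2.11 against negative values of 3.36 and 3.37, 2.35-fold lower (−1.24 ± 0.08, adjusted p = 0.0018). Col4a2 was at 2.46 and 2.47 against 2.93 and 2.93, only 1.38-fold lower (−0.46 ± 0.08, adjusted p = 0.020). The Col4a2 call ended with median scaling (adjusted p = 0.19) and when any 1 of the 4 arrays was left out (adjusted p between 0.069 and 0.11).

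Col4a1 and Col4a2 are divergent neighbours on chromosome 8, and their probes lie at chr8:11199009-11199068 and chr8:11448840-11448899. RefSeq places their starts 21 bases apart, so that their 300-base promoter windows share 78 bases. The falls differed in size at the 1 probe that stood for each gene. Measured probes of the same gene differed by up to 2.40 (Col25a1), so gene and probe were not separated here. The log2 signal of Col4a1 minus that of Col4a2 was −0.31 and −0.36 in the positive against 0.43 and 0.44 in the negative samples, a shift of −0.77 with no overlap. The exact two-sided permutation p of that shift was again 0.333, the smallest possible. On the X chromosome, Col4a5 and Col4a6 form another divergent pair, with starts 1343 bases apart, and encode chains of the network found in Bowman's capsule. Col4a5 was at −0.06 and −0.06 against 0.12 and 0.16 (−0.20 ± 0.08, adjusted p = 0.13). Col4a6 was at −1.17 and −1.14 against −1.36 and −1.30 (0.17 ± 0.08, adjusted p = 0.18). Neither passed the threshold, though both were called in opposite directions after normexp with quantile normalization (adjusted p = 0.047 and 0.043), and Col4a6 was called higher with median scaling (0.43, adjusted p = 0.039).

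Col4a3 and Col4a4, chains of the mature glomerular basement membrane, were lower, whereas Col4a5, another chain of that membrane, did not pass the threshold. Col4a4 was at −3.93 and −3.90 against −2.01 and −2.45, 3.21-fold lower (−1.68 ± 0.18). Col4a3 was at −5.82 and −6.03 on the negative arrays and not well above background on the positive ones, where the bound given above applies. The call of Col4a3 was lost with normexp and 75th percentile scaling (adjusted p = 0.068). Col4a3 passed the filter through the negative arrays alone, so its direction cannot be set beside that of markers. Of 7 podocyte markers, 5 were lower in the positive cells, against 18.3% of all genes tested. Synpo (0.08) and Magi2 (−0.02) did not pass the threshold. The part of podocytes in the Col4a4 difference was not tested. The summed linear level of the podocyte markers, over probes not comparable in level, was 0.84 and 0.79 against 6.38 and 5.61. The basement membrane zone collagens, whose carboxyl ends are the source of endostatin-type fragments, were lower too. Col18a1 was at 3.21 and 3.22 against 4.37 and 4.44, 2.28-fold lower (−1.19 ± 0.08). Col15a1 was 4.38-fold lower (−2.13 ± 0.12), from values near −6.5 in the positive and −4.4 in the negative samples.

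Among the 21 other collagens, 18 were tested, of which 14 were lower and 4 higher, with a median of −3.04. Leaving out the 4 genes with bounds, 10 of 14 were lower and 4 higher, with a median of −2.76. The type VI chains form beaded microfibrils around cells. Col6a1 was at −2.01 and −2.38 against 2.70 and 2.52, 28.0-fold lower (−4.81 ± 0.17). Col6a2 was at −3.26 and −3.59 against 0.66 and 0.38, 15.4-fold lower (−3.95 ± 0.18). A probe outside the naming rule that the array file describes as a fragment of the alpha 3 chain of type VI was also lower (−5.29 ± 0.23). Col6a6 was at −6.16 and −6.93 on the negative arrays, and its call was lost with either normexp setting and when dim probes were kept (adjusted p between 0.13 and 0.56).

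The fibril-associated collagens sit on the surface of fibrils, and most were lower. Col12a1 was at −4.11 and −4.31 against 0.53 and 0.18, 23.6-fold lower (−4.56 ± 0.16). Col14a1 was at −1.49 and −1.69 against 2.66 and 2.53, 18.2-fold lower (−4.19 ± 0.12). Col16a1 was at −0.23 and −0.45 against 3.42 and 3.28, 12.9-fold lower (−3.69 ± 0.12). Col22a1, found at tissue junctions, was 2.59-fold lower (−1.37 ± 0.10). Renal stroma markers moved in the same direction as the fibrillar, type VI and fibril-associated genes, with 9 of 10 lower, a median of −3.33 and a summed linear level of 16.2 and 15.1 on the positive against 53.3 and 50.4 on the negative arrays. Smooth muscle and mural cell markers did so for 7 of 8, and endothelial markers for 7 of 8, against 18.3% lower among all genes tested. The mural exception, Des, went the other way and was 7.95-fold higher in the positive samples (2.99 ± 0.16, adjusted p = 0.0011). The stromal exception, Foxd1 (−0.21 ± 0.14, adjusted p = 0.31), and the endothelial one, Kdr (0.07 ± 0.10, adjusted p = 0.64), did not pass the threshold. The stromal sum adds probes not comparable in level, and Lgals1 and Meis1 supplied most of it. Every marker of the stromal, mural and endothelial lists was well above background on both positive arrays, except Tbx18, on neither, and Tek, on 1. What part these cell types had in the collagen differences was not tested.

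Type IX collagen decorates cartilage-type fibrils, and its chains did not move together. Col9a1 was at −1.31 and −1.12 against −2.21 and −1.82, 1.74-fold higher (0.80 ± 0.17, adjusted p = 0.033). Col9a2 was at −2.12 and −2.10 against −1.09 and −0.99, 2.10-fold lower (−1.07 ± 0.09, adjusted p = 0.0031). Col9a3 was not well above background on the positive arrays, where it read −8.78 and −7.42, and stood at −5.06 and −4.91 on the negative ones. The Col9a1 call ended with its dimmer probe (0.32, adjusted p = 0.13), with no filter (adjusted p = 0.064) and without either positive array or the first negative array (adjusted p between 0.073 and 0.13). The Col9a3 call ended without either negative array (adjusted p = 0.069 and 0.078).

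The other higher genes were Col13a1, Col20a1 and Col7a1. Col13a1, a membrane-spanning collagen, was at −3.24 and −3.37 on the positive arrays against −5.16 and −5.03, 3.46-fold higher (1.79 ± 0.10, adjusted p = 0.0013). Col20a1, a fibril-associated collagen, was at −3.52 and −3.34 against −4.60 and −5.06, 2.64-fold higher (1.40 ± 0.19, adjusted p = 0.011), and its adjusted p was 0.054 without the second positive array. Col7a1, the anchoring fibril collagen of skin, was at 0.10 and 0.23 against −0.21 and −0.44, 1.40-fold higher (0.49 ± 0.12, adjusted p = 0.045). It lost the call without any 1 of the 4 arrays (adjusted p between 0.063 and 0.18), with no filter (0.086) and with the replicate number as a block (0.075). Thus 3 of the 6 higher collagens, Col2a1, Col11a2 and Col13a1, kept call and direction under all 15 alternatives, as did 23 of the 24 lower ones that could be fitted in all of them. Col8a1 and Col17a1 kept theirs in the 14 alternatives that tested them. Both passed the filter through the negative arrays alone, so their kept direction adds no support.

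The remaining lower genes included further membrane-spanning collagens and the short-chain type VIII. Col23a1 was 5.92-fold lower (−2.57 ± 0.22) and Col25a1 was 10.5-fold lower (−3.39 ± 0.33), with the negative arrays of Col25a1 at −2.10 and −3.01. Col17a1, the membrane-spanning collagen of epithelial anchorage, had the bound given above, as did Col8a1. Col8a2, which pairs with Col8a1 in endothelial and corneal matrix, was at −3.09 and −3.11 against −0.11 and −0.17, 7.77-fold lower (−2.96 ± 0.08).

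RefSeq names a few more collagens whose probes carry older names and so fell outside the naming rule. Col26a1 was at 4.28 and 4.29 on the positive arrays against 3.25 and 3.104, 2.16-fold higher (1.11 ± 0.10, adjusted p = 0.0035). Col6a4 was not well above background on the positive arrays and was at least 4.89-fold lower, and Col6a5 passed the filter with none of its probes.

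Several probes were kept for 11 of the collagen genes, and a gene's value was that of its brightest probe. In 10 genes at least 2 probes were well above background on all 4 arrays. Those probes had the same sign in all 10 genes, but in 4 of them, Col8a2, Col14a1, Col16a1 and Col25a1, they differed by over 2-fold. For 9 of the 11 the probe nearest the 5′ end was not the one used, and in 7 of those it gave the smaller difference. Col8a2 showed −0.58 ± 0.12 at transcript position 2234 and −2.96 at position 4197. Col14a1 showed −2.93 at position 5357 and −4.19 at position 6353, and the measured Col4a4 probes gave −1.43 at position 1577 and −1.68 at position 7167. Isoform use, probe affinity and background were not separated by these values.

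The glycine repeat of the helix could be read in 3 of the 59 collagen probes (5.08%), against 17 of 39370 other probes (0.0432%). Such a probe was defined by at least 5 glycine codons, GGN, spaced 3 codons apart in an open frame. Probes that lie in the helix but miss this pattern were not counted. These 3 are shown because they display the repeat and because those of Col16a1 and Col25a1 gave smaller differences than the other measured probes of their genes. They lie in mm9 at chr4:47283786-47283845 for Col15a1, chr4:129756457-129756516 for Col16a1 and chr3:130270497-130270556 for Col25a1, all on the plus strand, with the glycine codons in capitals.
Col15a1: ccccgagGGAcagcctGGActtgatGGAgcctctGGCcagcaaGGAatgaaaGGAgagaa
Col16a1: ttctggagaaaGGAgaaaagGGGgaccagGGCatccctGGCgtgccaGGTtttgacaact
Col25a1: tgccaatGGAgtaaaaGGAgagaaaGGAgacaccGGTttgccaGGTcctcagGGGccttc
The Col15a1 probe, at position 2280, gave −2.13, while the other probes of the gene were not well above background on the positive arrays. The Col16a1 probe, at position 3168, gave −2.25 against −3.69 and −3.59. The Col25a1 probe, at position 2123, gave −0.99 against −3.39 at position 904, and the probes at positions 3140 and 5543 were not well above background on the positive arrays. Helix repeats resemble each other among collagens, and cross-hybridisation of these probes was not tested.

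**Figure D3:**
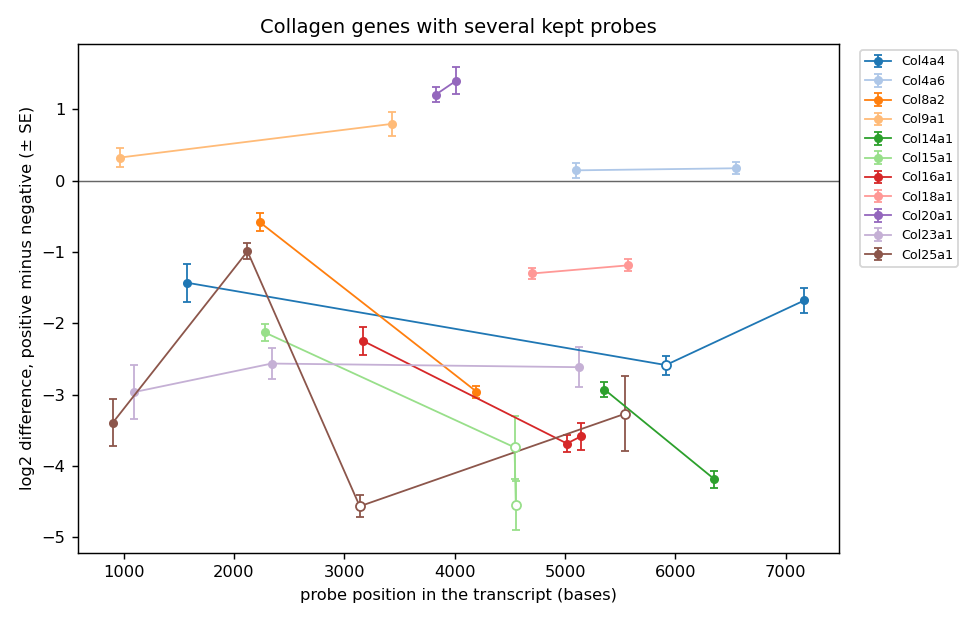
Log2 difference, positive minus negative, with SE (y axis) against probe position in the transcript in bases (x axis) for the 11 collagen genes with several kept probes, 1 line per gene. Open symbols are probes not well above background on either positive array, whose values are not measured differences. Among filled symbols, Col25a1 and Col8a2 show steps of 2.40 and 2.38.

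Genes that modify procollagen were examined next. Of 15 genes for prolyl and lysyl modification, all tested, 7 were lower and 1 was higher, with a median of −0.32. Among all genes tested, 18.3% were lower and 20.7% were higher. Colgalt2 passed the filter through the negative arrays alone, so it had to come out lower. With the filter on all 4 arrays, 6 modification genes were lower. P3h2, a prolyl 3-hydroxylase, was at −5.88 and −6.65 against −3.27 and −3.05 (−3.103 ± 0.30), and Colgalt2, a collagen galactosyltransferase, was at least 3.84-fold lower. The lysyl hydroxylases Plod1 (−0.93 ± 0.08) and Plod2 (−0.67 ± 0.08) were lower. P4ha3, a prolyl 4-hydroxylase subunit, was the higher gene (0.34 ± 0.09, adjusted p = 0.048), a call lost when any 1 array was left out (adjusted p between 0.098 and 0.20). P4ha1 differed by 0.05 ± 0.15 (adjusted p = 0.82).

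Of 11 chaperones and export factors, 2 were lower and 1 was higher, with a median of −0.24. That share of lower genes is near the 18.3% of all genes and is not a result about the list. Serpinh1, the collagen-specific chaperone HSP47, was at 4.67 and 4.78 on the positive arrays against 4.87 and 5.11 (−0.26 ± 0.12, adjusted p = 0.17). Its difference of 1.20-fold did not pass the threshold, while the fibrillar collagens ran from 36.5-fold lower (Col3a1) to 5.31-fold higher (Col11a2). Creb3l1, a transcription factor of the collagen secretory pathway, was lower (−2.51 ± 0.09). Tmem38b, an ion channel of the endoplasmic reticulum, was also lower (−1.34 ± 0.30, adjusted p = 0.034), with 1 of the 2 positive arrays well above background. Sec23a, a coat protein of export vesicles, was higher (0.42 ± 0.09, adjusted p = 0.029). Sec23a lost its call when any 1 array was left out (adjusted p between 0.078 and 0.14), and Tmem38b without the first positive or either negative array (between 0.067 and 0.12).

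For propeptide removal and fibril assembly 14 of 15 genes were tested, 10 were lower, 1 was higher and the median was −2.13. Among all genes tested, 18.3% were lower and 20.7% were higher. Lum and Dcn, small proteoglycans that bind fibrils, were lower by −5.17 ± 0.08 and −4.17 ± 0.19. Dcn was at 0.08 and −0.39 against 4.09 and 3.93. The procollagen N-proteinase Adamts2 (−3.03 ± 0.11), the C-proteinase enhancer Pcolce (−2.09 ± 0.12) and fibronectin, Fn1 (−3.01 ± 0.11), were lower. Sparc, a collagen-binding matricellular protein, was at 7.40 and 7.42 against 7.01 and 7.08 and was called higher (0.36 ± 0.08, adjusted p = 0.039). The Sparc call was lost with quantile normalization (0.04, adjusted p = 0.67) and when any 1 array was left out (adjusted p between 0.092 and 0.17).

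All 7 crosslinking genes were lower, with a median of −2.35, against 18.3% lower among all genes tested. Loxl4 passed the filter through the negative arrays alone, so it had to come out lower. With the filter on all 4 arrays, which also dropped Lox, 5 were lower. Lox, the lysyl oxidase that starts fibril crosslinks, was at −6.45 and −6.94 against −1.98 and −2.26 (−4.57 ± 0.22), and only 1 of the 2 positive arrays was well above background. Loxl4 was at least 12.5-fold lower and Tgm2, a transglutaminase, 21.0-fold lower (−4.39 ± 0.13). Pxdn, the peroxidase that crosslinks type IV collagen, was lower by the least (−0.40 ± 0.09, adjusted p = 0.037). The Pxdn call was lost when any 1 array was left out (adjusted p between 0.080 and 0.16), and that of Loxl2 without the first positive or the second negative array (0.069 and 0.052).

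The discoidin domain receptors, which are tyrosine kinases that bind collagen, were divided. Ddr2, known for binding fibrillar collagens, was at −4.30 and −4.35 against 0.68 and 0.62, 31.5-fold lower (−4.98 ± 0.09). Ddr1, which also binds type IV collagen, was at 1.05 and 1.012 against 0.37 and 0.52, 1.49-fold higher (0.58 ± 0.10, adjusted p = 0.018). The Ddr1 call was lost without either positive or the first negative array (adjusted p between 0.063 and 0.092). Of 9 tested genes for collagen receptors and uptake, 5 were lower, 1 was higher and the median was −0.54, against 18.3% lower and 20.7% higher among all genes. Itga2 passed the filter through the negative arrays alone, so it had to come out lower. With the filter on all 4 arrays, 4 receptor genes were lower. The collagen-binding integrin chain Itga1 was 19.6-fold lower (−4.30 ± 0.12) and Itga2 at least 5.35-fold lower. Their shared partner chain Itgb1 was 1.46-fold lower (−0.54 ± 0.09, adjusted p = 0.016), a call lost when any 1 array was left out (adjusted p between 0.051 and 0.090).

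**Figure D4:**
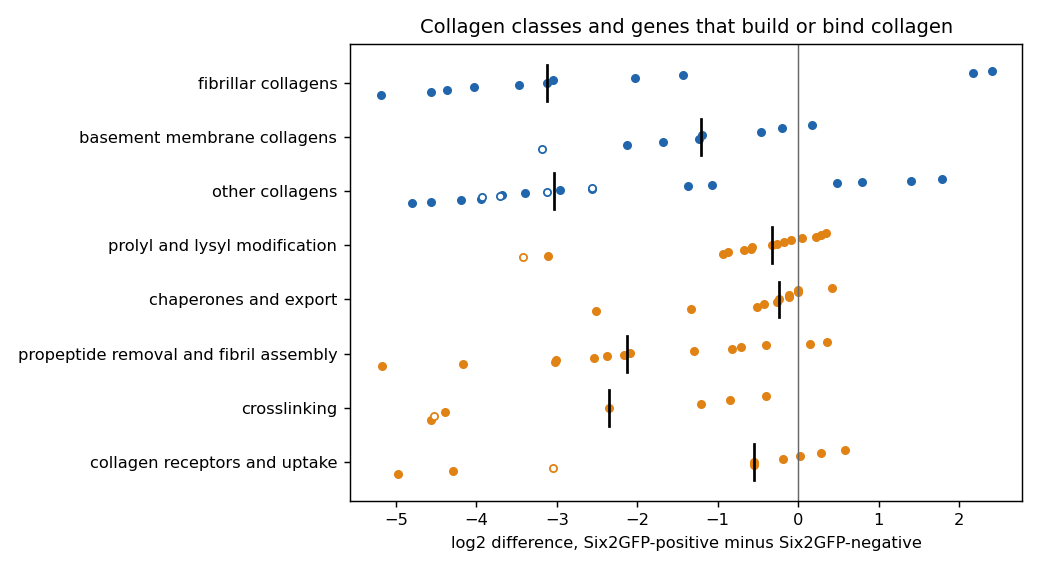
Log2 difference, positive minus negative (x axis), of each tested gene of the 3 collagen classes (blue) and of 5 lists of genes that modify, fold, assemble, crosslink or bind collagen (orange), with a black bar at each median and open symbols for genes not well above background on either positive array. The medians of the modification and chaperone lists, −0.32 and −0.24, lie near 0, and those of the assembly and crosslinking lists, −2.13 and −2.35, lie closer to the fibrillar median of −3.12. The medians include the genes with open symbols, which the filter obliged to come out lower.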

How the data were processed

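Total RNA was labelled with Cy3 and hybridised to 4 one-colour Agilent arrays with 60-base probes. Per the file headers, the authors' scanner files came from Feature Extraction 10.7.3.1 (protocol GE1_107_Sep09, mm9) and hold background-subtracted processed intensity per spot with quality flags. The arrays shared 1 slide and 1 scan time. Between 72.5% and 79.1% of the 43020 non-control spots were well above background, and 0 were saturated. The deposited value table matched the scanner intensity within 0.01 log2 for 99.8% of probes. The number of arrays limits the precision.

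From the deposited intensities, log2 signals minus each array's 75th percentile (processed signal 1410 to 1604) were computed, with outlier spots left out and spots of a probe averaged. Probes were named by RefSeq accession (26055), by symbol (3195) or as in the file (10179). Probes well above background on both arrays of a group were kept, and the brightest stood for its gene. All 24150 genes were fitted with limma 3.58.1 in R 4.3.3 (lmFit, eBayes). On simulated data, 77.6% of 67 changes of 2 log2 units and 37.9% of 66 changes of 1 were recovered. The simulation called 140 genes in all, whereas 9402 were called in the data. The adjusted p depends on the share of changed genes, so these figures do not give the recovery in the data.

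Six2, every collagen member and, for each related list, at least the 2 largest called differences in each direction were named. Cartilage, stromal and other markers, Plod1, Plod2, P4ha1, Serpinh1, Col26a1, Col6a4, Col6a5 and the type VI fragment probe were named after their values were seen. The members and lists were chosen with earlier results of these data known. Alternatives covered normalization, background, filters, probe choice, variance, the value table, a block for replicate numbers, and fits without 1 array.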

Additional observations from a re-analysis of the deposited data

How the results depend on the processing

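Of the 35 collagens called, 30 could be fitted under all 15 alternatives and 26 of these kept call and direction. Col8a1 and Col17a1 kept theirs in the 14 that tested them, but both had passed the filter through the negative arrays alone, which obliges a lower value. No collagen call reversed in the alternatives run. The collagen median of −2.57 was −2.31 with median scaling, −1.16 and −1.04 after normexp with the 75th percentile and with quantile normalization, −2.08 with no filter and −2.08 with the filter on all 4 arrays, and −2.72 with the mean of probes. For fibrillar collagens it was −2.86 with median scaling and −2.09 and −2.04 with the normexp settings. For basement membrane collagens it was −1.38 with quantile normalization, −0.96 with median scaling, −0.57 and −0.64 with normexp and −1.27 with the dimmest probe, and 1 gene was higher with median scaling and with normexp quantile. For other collagens it was −2.83 with quantile normalization, −2.78 with median scaling, −0.87 and −0.77 with normexp, −2.57 with no filter, −2.76 with the filter on all 4 arrays, −2.89 with the mean and −2.74 with the dimmest probe, and 2 were higher with no filter.

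Modification genes were lower for 11 with normexp quantile. They were higher for 3 with median scaling, 2 with normexp, 2 with an intensity trend and 0 with no filter or the replicate block. Chaperones were lower for 5 with quantile normalization, 6 with normexp quantile, 4 with an intensity trend and 1 with no filter or the filter on all 4 arrays, and higher for 0 with no filter. Assembly genes were higher for 2 with median scaling and 0 with normexp quantile, no filter or the replicate block. Receptors were lower for 3 with median scaling and higher for 2 with median scaling, normexp quantile, the mean of probes or the dimmest probe. Over all genes 4989 were higher, 10810 with median scaling and 2618 with no filter. With the dimmest probe Adamts14 was at 0.039 (adjusted p = 0.86), Loxl2 at 0.19 (0.17) and Tll1 at −2.33, and Tll1 was at −1.09 with the mean of probes. Other causes than the settings' own construction were not tested.

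Same-numbered arrays deviated with a correlation of 0.22 over genes, and with 2 pairs the numbers were not taken as pairing. With the replicate number as a block, 29 collagens were lower and 5 higher, with Col7a1 lost (adjusted p = 0.075), and 4371 and 4244 of all genes were lower and higher.

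Leaving out 1 array in turn, 27 to 28 collagens were lower and 3 to 5 higher (fewest without the second positive array), with a median between −2.94 and −2.44. The fibrillar median ranged from −3.23 to −2.98 and the other collagens' median from −3.18 to −2.75, with 1 to 3 of the latter higher. Modification genes were lower for 4 to 5 and higher for 0 to 0, chaperones lower for 1 to 2 and higher for 0 to 0, assembly genes higher for 0 to 0, and receptors lower for 3 to 3 and higher for 0 to 1. Over all genes 1320 to 2163 were higher. The lone array of a group was assumed to vary like the other group. Dim probes limit the 5 genes with bounds.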
